A study of Mus musculus with 27 samples.

Results

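The Notch genes followed here were the receptors Notch1, Notch2 and Notch4, the ligands Jag1 and Jag2, the DNA-binding protein gene Rbpj and the target gene Hes1. These 7 genes were taken by name from a count table of 29872 genes, and all 7 passed the filter on low counts together with the rest of the 14589 genes tested. Counts came from 27 poly(A) RNA sequencing libraries of bone marrow-derived macrophages, which are primary cells grown for 5 days from the marrow of male C57BL/6 mice 8 to 10 weeks old, in medium holding 10% L-cell supernatant. The knockout cells (15 libraries) were labelled LysM-Cre+/+; GRIP1fl/fl, so Cre made from the lysozyme M locus of myeloid cells removes a floxed part of Ncoa2, the gene of the nuclear receptor coregulator GRIP1. The wild-type cells (12 libraries) were labelled LysM-Cre+/+ ; GRIP1wt/wt in the genotype field and only BL6 in the titles, so whether they carried Cre cannot be told from the labels. Each genotype received interleukin 4 (IL4) at 10 ng/ml, the natural glucocorticoid corticosterone at 500 nM, the synthetic glucocorticoid dexamethasone at 100 nM, or vehicle, for 24 h. Knockout groups held 3 libraries with IL4 and 4 with each other treatment, and each wild-type group held 3. Separate animals or cultures are not named for the libraries of a group. The p-values therefore cover library-to-library spread, which may be technical.

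Ncoa2 stood at 16.1 to 26.0 CPM (counts scaled to the size of the library) in knockout libraries and at 55.7 to 93.4 CPM in wild-type libraries, with no overlap. Fkbp5, a gene that glucocorticoids induce, stood at 470.3 to 947.6 CPM in glucocorticoid libraries and 58.6 to 74.1 CPM in vehicle libraries. Libraries held 20162729 to 48023102 counts. The 10 macrophage markers summed to 6417 to 7710 CPM in knockout libraries and 6250 to 7423 CPM in wild-type libraries. The 10 stromal markers (collagens, Dcn, Lum, Pdgfra, Pdgfrb, Cxcl12, Lepr and Postn) summed to 12.4 to 51.7 CPM in knockout libraries and 183 to 883 CPM in wild-type libraries. Among wild-type libraries this sum was 730 to 883 CPM in the 4 numbered 1, 290 to 381 CPM in the 4 numbered 2 and 183 to 239 CPM in the 4 numbered 3. The 7 neutrophil markers summed to 5.66 to 16.2 CPM in knockout and 42.7 to 292 CPM in wild-type libraries. In 4 libraries not given IL4, Arg1, an enzyme gene that IL4 induces, stood at 67.1 to 117 CPM (knockout vehicle 2 and 3, knockout dexamethasone 2, wild-type dexamethasone 1), against 0.114 to 12.2 CPM in the other libraries without IL4. Retnla, a second gene that IL4 induces, stood at 113 to 247 CPM in IL4 libraries. It stood at 6.06 and 1.42 CPM in knockout vehicle 2 and 3, 0.590 CPM in knockout dexamethasone 2 and 0.0995 CPM in wild-type dexamethasone 1. The other libraries without IL4 held Retnla at 0 to 0.188 CPM. Results that change without the libraries high in Arg1, or without the wild-type libraries numbered 1, are given both ways.

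Notch signalling passes between touching cells. A ligand of the Delta or Jagged type on one cell binds a Notch receptor on its neighbour, the receptor is cut by Adam10 and then by gamma-secretase, and the freed intracellular part joins Rbpj and Mastermind proteins on DNA to switch on target genes such as those of the Hes and Hey families. Without that signal Rbpj sits with corepressors. In myeloid cells the pathway is known for its part in monocyte fate, in dendritic cell and Kupffer cell development and in inflammatory gene control.

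The start regions of Notch4 and Jag1 are shown because both genes were called with IL4 in each genotype and between genotypes, Notch4 with both glucocorticoids and Jag1 with dexamethasone in wild-type cells. RefSeq start windows on build GRCm38.p6, running from 250 bases before to 50 bases after each annotated start, were at hand for 6 of the 7 genes. The Notch4 stretch is chr17:34564045-34564297 on the plus strand and ends 3 bases after the RefSeq start. GENCODE starts the gene further upstream, at 34564268, so by GENCODE the marked letters lie inside the transcript. Its capitals mark TGACTCA, the letters bound by AP-1 factors, at bases -4 to 3 counted from the RefSeq start. The Jag1 stretch is chr2:137116645-137116770 on the minus strand, upstream of the gene as GENCODE annotates it, and holds no capitals because none of the letters searched were found in its window.
Notch4: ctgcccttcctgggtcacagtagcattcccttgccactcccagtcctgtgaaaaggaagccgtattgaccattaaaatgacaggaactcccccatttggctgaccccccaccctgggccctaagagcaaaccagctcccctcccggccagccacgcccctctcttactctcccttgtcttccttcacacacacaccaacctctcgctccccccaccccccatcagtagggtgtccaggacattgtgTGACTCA
Jag1: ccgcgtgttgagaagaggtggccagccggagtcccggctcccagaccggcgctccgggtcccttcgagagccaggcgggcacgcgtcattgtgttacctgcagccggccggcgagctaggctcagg
The windows were searched on both strands for 4 sets of letters. TGACTCA was present in 5.2% of all 32851 mouse start windows, the glucocorticoid receptor half-site AGAACA in 19%, the STAT6-type site, TTC and GAA with any 4 bases between, in 6.95% and the RBPJ core TGGGAA in 25.6%. AGAACA was found in no window of the 6 genes. The STAT6-type letters were found in the Notch1 window at bases -92 to -83 and in 1 of the 2 Rbpj windows at bases 8 to 17. TGGGAA was found in both Rbpj windows. The Notch1 window (26503773 to 26504072) and the Rbpj windows (53590096 to 53590395 and 53590236 to 53590535) lie inside these genes as GENCODE annotates them. By GENCODE these matches are therefore not at the outermost starts. A match or its absence describes these letters only.

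Per kilobase of exon, Notch2 and Rbpj stood highest in both genotypes, followed by Notch1 and Jag1 in knockout and by Jag1 and Notch1 in wild-type cells, and Notch4, Jag2 and Hes1 were sparse. In knockout vehicle libraries, Notch2 stood at 13.0 ± 3.12 CPM per kb (SD, n = 4), Rbpj at 9.82 ± 0.674, Notch1 at 7.63 ± 0.680, Jag1 at 2.86 ± 0.517, Notch4 at 0.418 ± 0.129, Jag2 at 0.147 ± 0.0406 and Hes1 at 0.102 ± 0.0522 CPM per kb. In wild-type vehicle libraries, Notch2 stood at 13.0 ± 1.25 CPM per kb (SD, n = 3), Rbpj at 11.4 ± 0.177, Jag1 at 7.50 ± 2.09, Notch1 at 6.58 ± 0.642, Notch4 at 0.651 ± 0.0257, Hes1 at 0.635 ± 0.477 and Jag2 at 0.158 ± 0.0226 CPM per kb. Neighbours in this order whose libraries or SDs overlapped were Notch2 and Rbpj, and Jag2 and Hes1, in knockout cells, and Notch2 and Rbpj, Jag1 and Notch1, Notch4 and Hes1, and Hes1 and Jag2, in wild-type cells. Most other receptors and ligands on the list were at or near 0. Across the 27 libraries Notch3 reached 0.746 CPM (18 counts), Dlk2 0.756, Dll4 0.387, Dlk1 0.277, Dll1 0.156 and Dll3 0.0683 CPM, whereas Dner, described further on, stood at 0.729 to 9.61 CPM.

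Against vehicle, IL4 lowered Notch4, both ligands and Rbpj in both genotypes, while the glucocorticoids raised Notch4 in both. Dexamethasone raised Notch1 in both genotypes and lowered Rbpj in both. The 3 treatments were set against the same vehicle libraries within each genotype, so their results are not independent of each other. Unless a block on the replicate number is named, calls are from a fit that does not pair libraries by number. With IL4, edgeR's quasi-likelihood test with Benjamini-Hochberg adjustment over all genes called 4 of the 7 members in knockout cells (26.5% of all genes tested were called) and 4 in wild-type cells (30.1%), all lower. The median log2 fold change of the members was -0.22 in knockout and -0.53 in wild-type cells, against 0.01 and -0.01 over all genes. In knockout cells the count was 2 without vehicle library 1 or without IL4 library 1.

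With corticosterone, 2 members were called in knockout cells (background 12.1%), both higher, and 2 in wild-type cells (background 5.94%), 1 higher and 1 lower. With the replicate number as a block, 4 members were called in each genotype, since Notch2 (adjusted p = 0.0249) and Jag1 (0.000483) joined in knockout cells and Notch1 (0.0343) and Jag1 (6.75e-05) in wild-type cells. The share of all genes called was taken only in the main edgeR fit. Counts from alternative fits, here and elsewhere, therefore have no background beside them. With dexamethasone, 3 members were called in knockout cells (background 18.4%), 2 higher and 1 lower, and 4 in wild-type cells (background 13.7%), 3 higher and 1 lower. The knockout count was 6 without vehicle library 1 and 5 without dexamethasone library 4, with DESeq2 or without the wild-type libraries numbered 1. The wild-type count was 2 without dexamethasone library 2 or with only the groups compared. Corticosterone and dexamethasone were given at different doses, so their values stand side by side and were not compared.

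**Figure D1:**
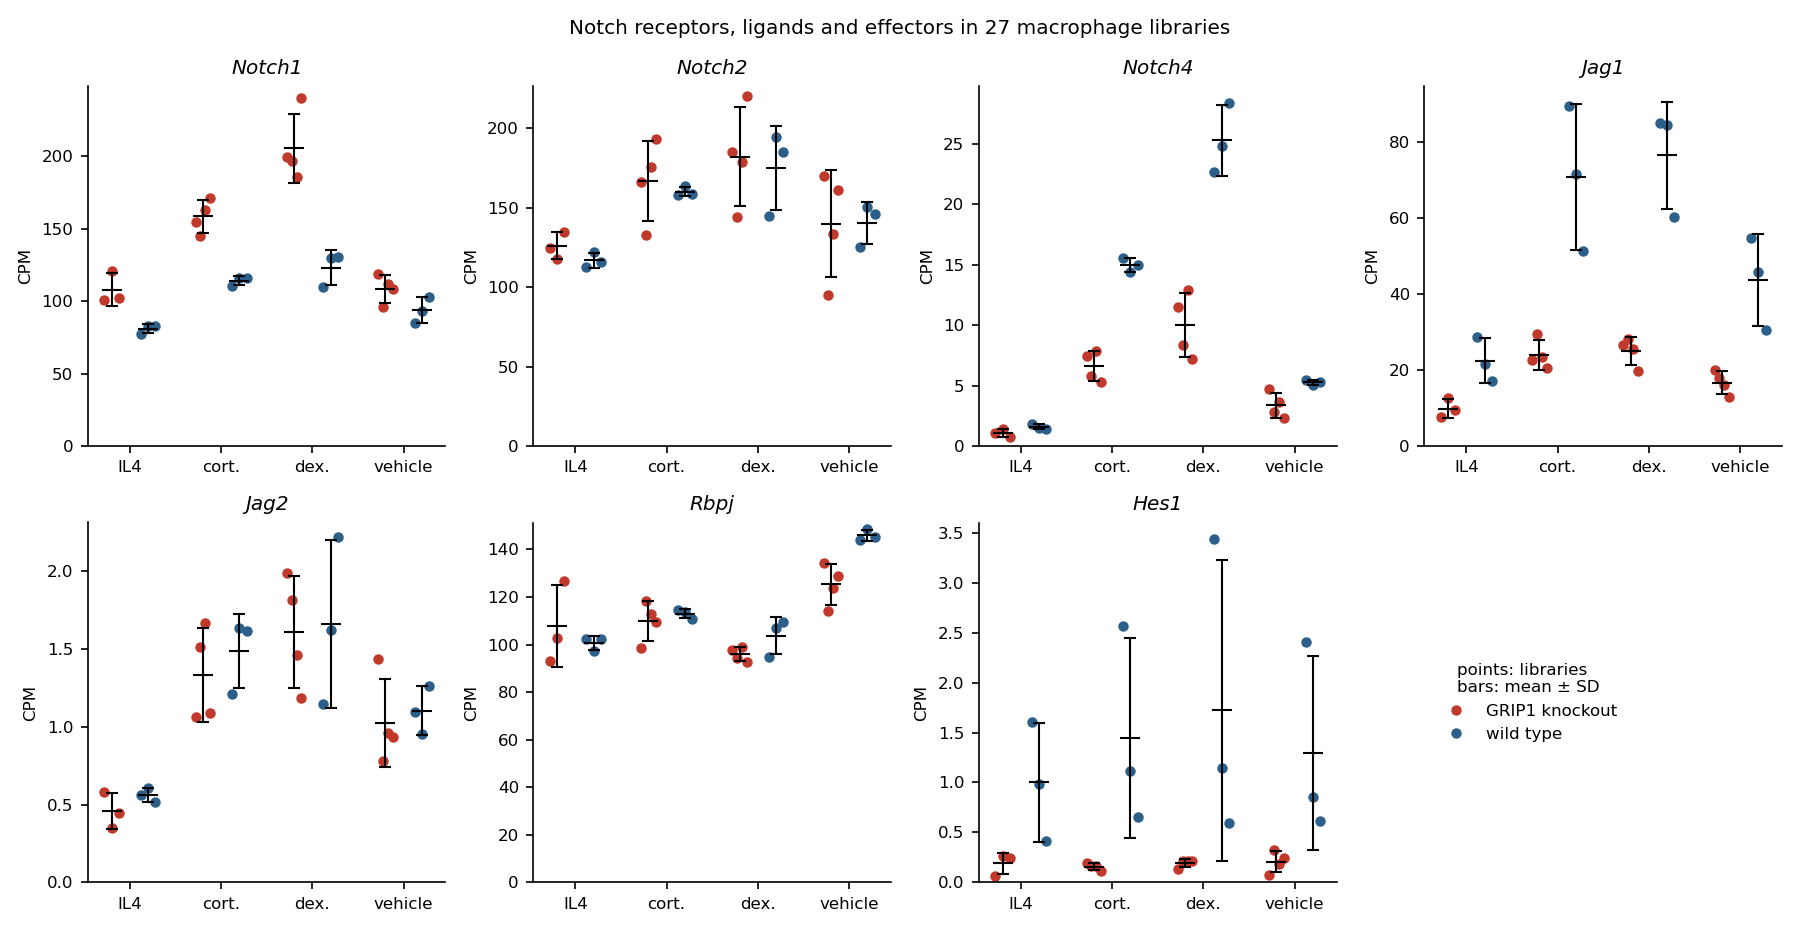
CPM of the 7 genes in every library (points) by treatment, knockout in red to the left of wild type in blue, with the mean and SD of each group as bars; each panel has its own linear axis from 0. Notch4 was at most 1.80 CPM in every IL4 library and at least 5.29 CPM in every glucocorticoid library, and Hes1 was at most 0.328 CPM in every knockout library.

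Between genotypes, Jag1 and Hes1 were lower in knockout cells under each of the 4 treatments, Notch4 was lower under vehicle, corticosterone and dexamethasone, and Notch1 was higher under IL4, corticosterone and dexamethasone. Under vehicle, 3 members were called between knockout and wild type (background 18.8%), under IL4 3 (12.4%), under corticosterone 4 (14.4%) and under dexamethasone 4 (17.2%). The vehicle count was 1 without wild-type vehicle library 1, and the IL4 count was 1 without wild-type IL4 library 1 or with only the groups compared. Wild-type cells held more stromal transcripts than knockout cells (9 of 9 tested stromal markers lower in knockout under vehicle, and 8 of 9 under each other treatment), and the part of these cells in the genotype differences was not tested beyond the values given beside each gene. In bulk libraries, fewer cells of a type and less RNA per cell cannot be told apart.

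Notch4 had the largest changes with treatment among the 7 genes. It is a Notch receptor best known from endothelium (chromosome 17, 34564268 to 34588503, plus strand, GRCm38, ENSMUSG00000015468). In knockout cells it stood at 1.07, 1.44 and 0.729 CPM with IL4, at 7.48, 5.79, 7.87 and 5.29 CPM with corticosterone, and at 11.5, 8.38, 12.9 and 7.21 CPM with dexamethasone, against 4.69, 2.83, 3.67 and 2.31 CPM with vehicle. In wild-type cells it stood at 1.80, 1.52 and 1.42 CPM with IL4, at 15.6, 14.4 and 15.0 CPM with corticosterone, and at 22.6, 24.8 and 28.4 CPM with dexamethasone, against 5.43, 5.03 and 5.30 CPM with vehicle. All IL4 libraries lay below and all glucocorticoid libraries above the vehicle libraries of their genotype. The log2 fold change with IL4 was -1.65 ± 0.26 (SE) in knockout cells (adjusted p = 4.98e-05, edgeR) and -1.73 ± 0.25 in wild-type cells (adjusted p = 8.94e-06). With corticosterone it was 0.97 ± 0.20 in knockout cells (adjusted p = 0.00144) and 1.51 ± 0.22 in wild-type cells (adjusted p = 5.79e-05). With dexamethasone it was 1.57 ± 0.20 in knockout cells (adjusted p = 2.41e-06) and 2.27 ± 0.22 in wild-type cells (adjusted p = 6.36e-08).

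Knockout cells had less Notch4 than wild-type cells with either glucocorticoid. The log2 difference between knockout and wild type was -1.18 ± 0.20 with corticosterone (adjusted p = 0.000235) and -1.34 ± 0.19 with dexamethasone (adjusted p = 3.68e-05), and every knockout library lay below every wild-type library of the same treatment. Under vehicle it was -0.64 ± 0.21 (adjusted p = 0.0357), again without overlap, but this call was lost in several alternative fits, among them those without the libraries high in Arg1 (adjusted p = 0.162), without any one wild-type vehicle library (adjusted p = 0.0651 to 0.103) and without knockout vehicle library 2 (0.0860) or 4 (0.124). Under IL4 it was -0.55 ± 0.29 (adjusted p = 0.228), and knockout library 2 at 1.44 CPM lay above the lowest wild-type library at 1.42 CPM. Among wild-type libraries numbered 1, 2 and 3, Notch4 was in the order of the stromal sum under IL4 (1.80, 1.52 and 1.42 CPM), in the opposite order under dexamethasone (22.6, 24.8 and 28.4 CPM), and in neither order under corticosterone (15.6, 14.4 and 15.0 CPM) or vehicle (5.43, 5.03 and 5.30 CPM). The 10 endothelial markers were uneven: Vwf stood at 46.3 to 286 CPM, Pecam1 at 4.31 to 47.6, Kdr at 3.78 to 11.3 and Cdh5 at 1.10 to 5.84 CPM across the 27 libraries, the other 6 each stayed at or under 3.47 CPM, and Tek and Emcn were at 0 in 4 libraries and Sox18 in 7. Their sum, to which Vwf gave the most, was 245 to 303 CPM in knockout IL4 libraries and 112 to 142 CPM in knockout vehicle libraries, and 257 to 329 CPM in wild-type IL4 libraries and 76.1 to 102 CPM in wild-type vehicle libraries. Of 8 endothelial markers tested, IL4 called 2 higher and 2 lower in knockout cells and 2 higher and 1 lower in wild-type cells. Their part in the Notch4 result was not tested.

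**Figure D2:**
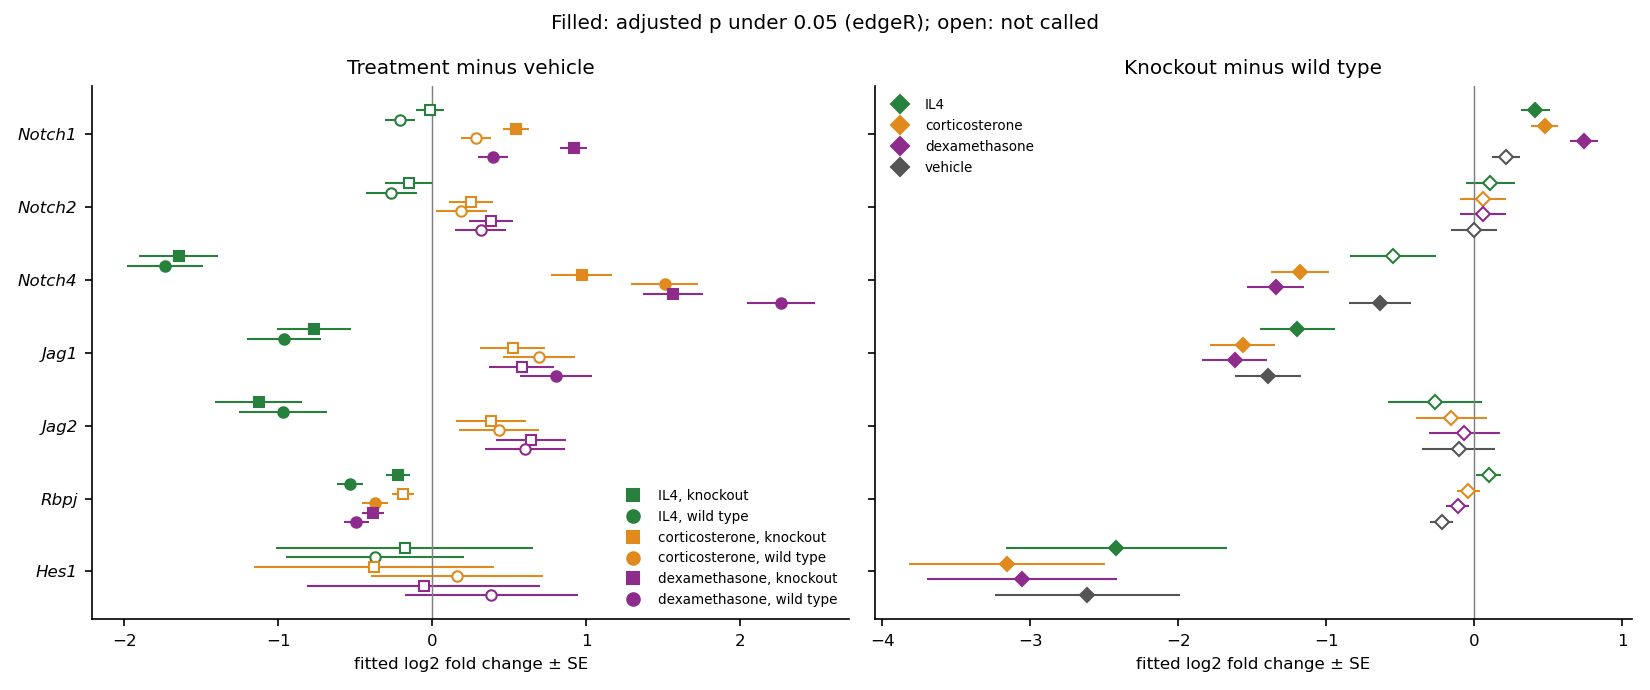
Fitted log2 fold changes (x axis) with their SE for the 7 genes (rows), for each treatment minus vehicle on the left and for knockout minus wild type on the right; filled symbols passed an adjusted p of 0.05 in edgeR's quasi-likelihood test. Notch4 lies at -1.65 and -1.73 with IL4 and between 0.97 and 2.27 with the glucocorticoids, and Jag1 lies between -1.20 and -1.62 for knockout minus wild type.

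Notch1, the receptor of T cell fate, was higher in glucocorticoid-treated cells, and its knockout libraries lay above the wild-type ones under every treatment but vehicle (chromosome 2, 26457903 to 26516663, minus strand, ENSMUSG00000026923). Knockout libraries held Notch1 at 100.4, 121 and 102 CPM with IL4, 155, 145, 163 and 171 CPM with corticosterone, and 199, 197, 186 and 240 CPM with dexamethasone, against 119, 95.6, 112 and 108 CPM with vehicle. Wild-type libraries held Notch1 at 77.4, 82.9 and 82.9 CPM with IL4, 110.3, 116 and 116 CPM with corticosterone, and 109, 129.6 and 130.3 CPM with dexamethasone, against 84.8, 93.2 and 103 CPM with vehicle. Every glucocorticoid library lay above the vehicle libraries of its genotype. The log2 fold change with dexamethasone was 0.92 ± 0.09 in knockout cells (adjusted p = 2.53e-08, edgeR) and 0.39 ± 0.10 in wild-type cells (adjusted p = 0.00741), the second of which was lost without wild-type vehicle library 1 (0.0535) or dexamethasone library 2 (0.0606). With corticosterone it was 0.55 ± 0.09 in knockout cells (adjusted p = 9.4e-05) and 0.29 ± 0.10 in wild-type cells (adjusted p = 0.0985; blocking on the replicate number gave 0.0343). With IL4 it was -0.01 ± 0.09 in knockout cells and -0.21 ± 0.10 in wild-type cells (adjusted p = 0.945 and 0.119).

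Set against wild type, Notch1 in knockout cells was higher by a log2 difference of 0.74 ± 0.09 with dexamethasone (adjusted p = 6.16e-06, edgeR), 0.47 ± 0.09 with corticosterone (adjusted p = 0.000943) and 0.41 ± 0.10 with IL4 (adjusted p = 0.00793), with no overlap of libraries in any of the 3. The IL4 call was lost without wild-type IL4 library 1 (adjusted p = 0.0792) or knockout IL4 library 2 (0.0609). Under vehicle the difference was 0.21 ± 0.09 (adjusted p = 0.120), and the groups overlapped. Notch1 overlaps the genes 0610009E02Rik and Gm13568 on the other strand, and no source used here states whether counting used the strand, so reads of these genes cannot be told apart from those of Notch1.

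Notch2, the receptor needed by several myeloid subsets in mice, passed the threshold in none of the 10 treatment and genotype comparisons fitted over all libraries without a block (chromosome 3, 98013527 to 98150361, plus strand, ENSMUSG00000027878). Its knockout values were 125, 118 and 135 CPM with IL4, 166, 133, 175 and 193 CPM with corticosterone, and 185, 144, 179 and 220.5 CPM with dexamethasone, against 170.0, 95.3, 134 and 161 CPM with vehicle. Its wild-type values were 112, 122 and 116 CPM with IL4, 158, 164 and 159 CPM with corticosterone, and 145, 194 and 185 CPM with dexamethasone, against 125, 150.3 and 146 CPM with vehicle. Knockout vehicle libraries spread widely, and knockout library 2 was the lowest of its group under all 4 treatments. Its log2 difference between knockout and wild type was -0.01 ± 0.15 under vehicle, 0.11 ± 0.17 under IL4, 0.06 ± 0.15 under corticosterone and 0.06 ± 0.15 under dexamethasone, values with adjusted p from 0.713 to 0.991. With the replicate number as a block, IL4 lowered it in wild-type cells by 0.26 on the log2 scale (adjusted p = 0.0341), dexamethasone raised it there by 0.31 (adjusted p = 0.0215) and corticosterone raised it in knockout cells by 0.27 (adjusted p = 0.0249). With dexamethasone in knockout cells its log2 fold change was 0.38 ± 0.14 (adjusted p = 0.0688), and it passed with DESeq2 (0.0462), with the block (0.0011), and without vehicle library 1 (0.0271) or 4 (0.0434) or dexamethasone library 2 (0.0226).

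Jag1 was lower in knockout cells under all 4 treatments, and these calls held in every alternative fit. It encodes a Jagged ligand that neighbouring cells present to Notch receptors (chromosome 2, 137081456 to 137116644, minus strand, ENSMUSG00000027276). Knockout cells held Jag1 at 7.67, 12.5 and 9.36 CPM with IL4, 22.6, 29.4, 23.4 and 20.4 CPM with corticosterone, and 26.5, 28.2, 25.4 and 19.7 CPM with dexamethasone, against 19.9, 17.8, 16.1 and 12.8 CPM with vehicle. Wild-type cells held Jag1 at 28.7, 21.5 and 17.0 CPM with IL4, 89.6, 71.6 and 51.2 CPM with corticosterone, and 84.9, 84.4 and 60.2 CPM with dexamethasone, against 54.8, 45.7 and 30.6 CPM with vehicle. Every knockout library lay below every wild-type library of the same treatment. The log2 difference between knockout and wild type was -1.39 ± 0.22 under vehicle (adjusted p = 0.000124, edgeR), -1.20 ± 0.26 under IL4 (0.00372), -1.56 ± 0.22 under corticosterone (4.19e-05) and -1.62 ± 0.22 under dexamethasone (2.25e-05).

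Among wild-type libraries, Jag1 was highest in the library numbered 1 and lowest in that numbered 3 under every treatment, the same order as the stromal sum. Under dexamethasone numbers 1 and 2 were close (84.9 and 84.4 CPM). Without the wild-type libraries numbered 1, which held the most stromal transcripts, the differences were -1.20, -0.98, -1.36 and -1.54 for vehicle, IL4, corticosterone and dexamethasone (adjusted p = 0.000601, 0.0165, 0.00016 and 3.54e-05). The knockout values lay below the wild-type libraries numbered 3 within each treatment. Those libraries still held stromal sums of 183 to 239 CPM, against 12.4 to 51.7 CPM in knockout libraries. The part of stromal cells in the Jag1 difference was not tested.

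With IL4 the log2 fold change of Jag1 was -0.77 ± 0.24 in knockout cells (adjusted p = 0.0226, edgeR) and -0.96 ± 0.24 in wild-type cells (adjusted p = 0.00341). The knockout call was lost without vehicle library 1 (adjusted p = 0.0659), IL4 library 1 (0.105) or IL4 library 4 (0.0827), and without the libraries high in Arg1 (0.0866). With dexamethasone it was 0.58 ± 0.21 in knockout cells (adjusted p = 0.0595) and 0.81 ± 0.23 in wild-type cells (adjusted p = 0.0222). The wild-type dexamethasone call was lost without vehicle library 2 (0.0511) or 3 (0.132), without dexamethasone library 1 (0.0769) or 2 (0.0962), and in 3 further fits (adjusted p = 0.0703 to 0.0902). That call held in 6 of the 13 alternative fits. Every wild-type dexamethasone library (at least 60.2 CPM) lay above every wild-type vehicle library (at most 54.8 CPM). The knockout dexamethasone value passed without vehicle library 1 (0.0481), without dexamethasone library 4 (0.0420) and without the wild-type libraries numbered 1 (0.0311). With corticosterone it was 0.53 ± 0.21 in knockout cells (adjusted p = 0.119) and 0.70 ± 0.23 in wild-type cells (adjusted p = 0.0882, and 0.0387 without corticosterone library 3), and both passed with the replicate number as a block. In both genotypes Jag1 libraries given IL4 all lay below those given vehicle, and the 2 glucocorticoid groups overlapped each other.

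Jag2, the other Jagged ligand, was counted only 8 to 60 times per library, and its values are correspondingly coarse (chromosome 12, 112907819 to 112929776, minus strand, ENSMUSG00000002799). In knockout cells it stood at 0.582, 0.349 and 0.446 CPM with IL4, at 1.06, 1.51, 1.66 and 1.09 CPM with corticosterone, and at 1.99, 1.81, 1.46 and 1.18 CPM with dexamethasone, against 1.43, 0.778, 0.958 and 0.935 CPM with vehicle. In wild-type cells it stood at 0.560, 0.607 and 0.518 CPM with IL4, at 1.21, 1.63 and 1.61 CPM with corticosterone, and at 1.14, 1.62 and 2.22 CPM with dexamethasone, against 1.09, 0.950 and 1.26 CPM with vehicle. All IL4 libraries lay below the vehicle libraries of their genotype. The log2 fold change with IL4 was -1.13 ± 0.28 in knockout cells (adjusted p = 0.00443, edgeR) and -0.97 ± 0.29 in wild-type cells (adjusted p = 0.0119, and 0.0552 without vehicle library 3). With dexamethasone it was 0.64 ± 0.23 in knockout cells (adjusted p = 0.0501, and 0.0158 without vehicle library 1 or 0.0279 without dexamethasone library 4) and 0.60 ± 0.26 in wild-type cells (adjusted p = 0.141). No genotype comparison called Jag2, with log2 differences from -0.27 ± 0.32 under IL4 to -0.07 ± 0.24 under dexamethasone.

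Rbpj, the DNA-binding protein through which all Notch receptors act, was lower than with vehicle in every treated group, past the threshold in all but knockout cells given corticosterone (chromosome 5, 53466152 to 53657362, plus strand, ENSMUSG00000039191). Knockout libraries held Rbpj at 93.3, 103 and 127 CPM with IL4, 98.4, 118, 113 and 109.6 CPM with corticosterone, and 97.8, 94.3, 99.1 and 92.7 CPM with dexamethasone, against 134, 114, 124 and 129 CPM with vehicle. Wild-type libraries held Rbpj at 102.3, 97.5 and 102.3 CPM with IL4, 114, 114 and 111 CPM with corticosterone, and 94.9, 107 and 109 CPM with dexamethasone, against 144, 148 and 145 CPM with vehicle. All treated wild-type libraries lay below all wild-type vehicle libraries, whereas in knockout cells this held for dexamethasone alone. The log2 fold change with dexamethasone was -0.38 ± 0.07 in knockout cells (adjusted p = 0.000438, edgeR) and -0.49 ± 0.08 in wild-type cells (adjusted p = 0.000183). With corticosterone it was -0.19 ± 0.07 in knockout cells (adjusted p = 0.0954) and -0.37 ± 0.08 in wild-type cells (adjusted p = 0.00725). With IL4 it was -0.22 ± 0.08 in knockout cells (adjusted p = 0.0413) and -0.53 ± 0.08 in wild-type cells (adjusted p = 2.61e-05).

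The knockout IL4 call of Rbpj was lost without vehicle library 1 (adjusted p = 0.119) or 4 (0.0905), without IL4 library 1 (0.259, log2 fold change -0.13) or 2 (0.148), with only the groups compared (0.227) and without the wild-type libraries numbered 1 (0.0508). Between genotypes the log2 difference was -0.22 ± 0.08 under vehicle (adjusted p = 0.0510, and 0.0333 without knockout vehicle library 1), where knockout libraries all lay below wild-type ones, and it was 0.10 ± 0.08 under IL4, -0.04 ± 0.08 under corticosterone and -0.11 ± 0.08 under dexamethasone. Rbpj overlaps the antisense genes Gm10441 and Gm40304, whose reads cannot be told apart from its own unless counting used the strand.

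Hes1, a transcriptional repressor that Notch signalling induces in many cell types, was at most 0.328 CPM in knockout cells (chromosome 16, 30064384 to 30067796, plus strand, ENSMUSG00000022528). Its knockout values were 0.0647, 0.262 and 0.243 CPM with IL4, 0.190, 0.163, 0.163 and 0.113 CPM with corticosterone, and 0.139, 0.211, 0.214 and 0.218 CPM with dexamethasone, against 0.0775, 0.328, 0.180 and 0.249 CPM with vehicle. Its wild-type values were 1.60, 0.986 and 0.415 CPM with IL4, 2.57, 1.12 and 0.652 CPM with corticosterone, and 3.43, 1.14 and 0.591 CPM with dexamethasone, against 2.41, 0.858 and 0.615 CPM with vehicle. These are 2 to 9 counts in a knockout library and 12 to 69 counts in a wild-type library, and all knockout libraries lay below all wild-type libraries. The log2 difference between knockout and wild type was -2.61 ± 0.62 under vehicle (adjusted p = 0.00404, edgeR), -2.42 ± 0.75 under IL4 (0.0346), -3.16 ± 0.66 under corticosterone (0.00188) and -3.06 ± 0.64 under dexamethasone (0.00164). No treatment changed Hes1 in either genotype past the threshold, with log2 fold changes from -0.38 ± 0.78 to 0.39 ± 0.56.

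Hes1 moved with stromal transcripts across the wild-type libraries, and both were lower in knockout libraries. Hes1 in wild-type cells stood at 1.60 to 3.43 CPM in the libraries numbered 1, at 0.858 to 1.14 CPM in those numbered 2 and at 0.415 to 0.652 CPM in those numbered 3, the same order as the stromal sum, under every treatment. Nedd4, a ubiquitin ligase gene from the list of other pathway genes, went the same way, with 4.69 to 7.68 CPM in knockout libraries and 58.1 to 62.5, 26.4 to 29.5 and 17.0 to 22.0 CPM in wild-type libraries numbered 1, 2 and 3. Without the wild-type libraries numbered 1, the Hes1 differences between knockout and wild type were -1.83, -1.92, -2.47 and -2.10 for vehicle, IL4, corticosterone and dexamethasone, and all 4 passed the threshold (adjusted p = 0.00607, 0.0240, 0.000769 and 0.00265). The vehicle call was lost when only wild-type vehicle library 1 was left out (log2 difference -1.82, adjusted p = 0.0756), the IL4 call without either wild-type IL4 library 1 (0.204) or 2 (0.0667) or knockout IL4 library 1 (0.115) or 4 (0.0863), without the filter (0.0933) or with only the groups compared (0.0850), and the dexamethasone call without the libraries high in Arg1 (-2.13, 0.0757). The neutrophil sum had the same order in wild-type libraries numbered 1, 2 and 3 under every treatment (292, 111 and 76.1 CPM with vehicle). Whether the Hes1 counts came from the macrophages, from stromal cells or from other cells was not tested.

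**Figure D3:**
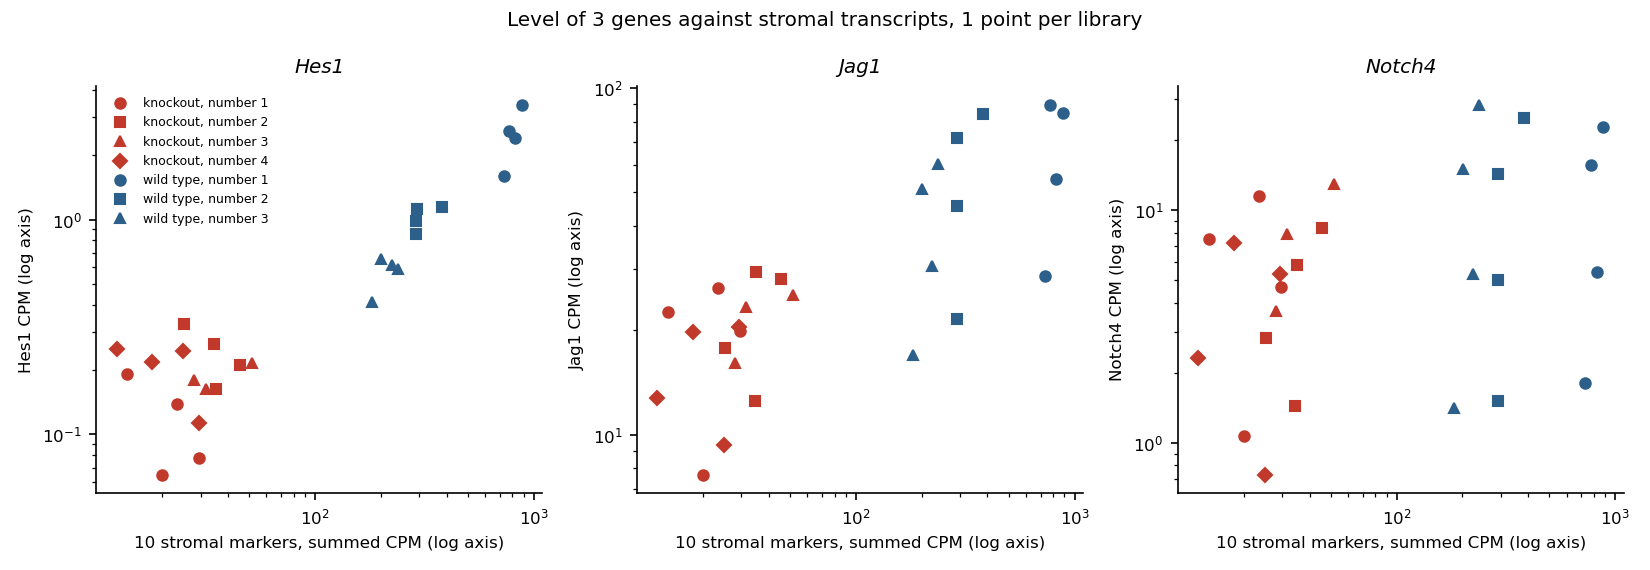
CPM of Hes1, Jag1 and Notch4 (y axes, log) against the summed CPM of the 10 stromal markers (x axis, log), 1 point per library, knockout in red and wild type in blue, with the symbol giving the replicate number. Hes1 rises with the stromal sum through the wild-type libraries numbered 3, 2 and 1, whereas wild-type Notch4 spans 1.80 to 22.6 CPM at number 1, 1.52 to 24.8 CPM at number 2 and 1.42 to 28.4 CPM at number 3.

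Whether a treatment acted differently in the 2 genotypes was tested by the interaction, the log2 fold change in knockout minus that in wild-type cells. No member was called for IL4 (0.0274% of all genes called), corticosterone (0.0206%) or dexamethasone (0.185%). At an unadjusted p under 0.05, edgeR gave 1 member for IL4, 0 for corticosterone and 2 for dexamethasone. Of all 14589 genes tested, 1323, 926 and 880 passed that unadjusted threshold. DESeq2 called 0, 0 and 1 member at an adjusted p. For dexamethasone the interaction of Notch1 was 0.53 ± 0.13 (adjusted p = 0.126 with edgeR and 0.0204 with DESeq2) and that of Notch4 was -0.70 ± 0.29 (adjusted p = 0.635). With the replicate number as a block both passed (Notch1 adjusted p = 0.0276, Notch4 0.0380), although the numbers did not meet the rule for pairing in knockout cells given dexamethasone. For IL4 that of Rbpj was 0.32 ± 0.11 (adjusted p = 0.386). Differences of Jag1 between genotypes in its response to IL4, corticosterone and dexamethasone were 0.20 ± 0.34, -0.17 ± 0.31 and -0.23 ± 0.31.

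The rest of the pathway was read from 79 further genes, of which 65 were tested. With IL4, 15 were higher and 9 lower in knockout cells, and 12 were higher and 15 lower in wild-type cells, which is 36.9% and 41.5% of those tested beside 26.5% and 30.1% of all genes. Tspan5, a tetraspanin that binds Adam10, averaged 59.0 ± 2.46 CPM with IL4 in knockout cells (SD, n = 3) against 33.6 ± 5.10 with vehicle (SD, n = 4), and 58.6 ± 4.16 with IL4 in wild-type cells against 23.9 ± 1.83 with vehicle (SD, n = 3 each). The groups did not overlap in either genotype, and the log2 fold changes were 0.81 ± 0.09 in knockout cells (adjusted p = 5.24e-07, edgeR) and 1.30 ± 0.10 in wild-type cells (adjusted p = 1.46e-09). Furin, which cuts the newly made receptor, rose by 0.36 in knockout and 0.56 in wild-type cells on the log2 scale. Neurl3, a ubiquitin ligase of the Neuralized family, fell by 1.35 in knockout and by 1.72 in wild-type cells, and the fringe glycosyltransferase gene Lfng fell by 0.47 in knockout and by 0.56 in wild-type cells. Dner, which encodes a transmembrane protein described as an unusual Notch ligand in nerve tissue, stood at 0.729 to 0.917 CPM with IL4 against 1.496 to 3.33 CPM with vehicle in knockout cells and at 1.38 to 1.63 CPM with IL4 against 7.23 to 7.75 CPM with vehicle in wild-type cells.

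With corticosterone, 8 of the 65 were higher and 3 lower in knockout cells (16.9%, beside 12.1% of all genes), and 4 were higher and 4 lower in wild-type cells (12.3%, beside 5.94%, and 16 genes called with the replicate number as a block). With dexamethasone, 11 were higher and 6 lower in knockout cells (26.2%, beside 18.4% of all genes), and 10 were higher and 6 lower in wild-type cells (24.6%, beside 13.7%, and 25 genes called with the block). The share of all genes called with the block was not taken. The wild-type counts changed when libraries were left out. For corticosterone, leaving out any 1 library gave 5 to 7, the 5 without corticosterone library 3, and leaving out all wild-type libraries numbered 1 gave 4. For dexamethasone, leaving out 1 library gave 8 to 16. It was 8 without vehicle library 1, 10 without dexamethasone library 2 and 9 without dexamethasone library 3 or without all those numbered 1. These fits held fewer libraries and have no share of all genes beside them, so they do not show dependence on particular libraries. In knockout cells the corticosterone count was 7 without vehicle library 2 or corticosterone library 2 or 4, and the dexamethasone count was 11 without vehicle library 3. Tspan33, a further Adam10-binding tetraspanin, averaged 7.25 ± 0.318 CPM with corticosterone and 7.78 ± 1.02 with dexamethasone in knockout cells, against 3.30 ± 0.597 with vehicle (SD, n = 4 each). In wild-type cells it averaged 18.5 ± 1.91 CPM with corticosterone and 21.3 ± 2.04 with dexamethasone, against 5.78 ± 0.186 with vehicle (SD, n = 3 each). Like Notch4 it was high in every glucocorticoid library and lower in knockout than in wild-type cells, with log2 differences of -1.35 ± 0.13 for corticosterone and -1.46 ± 0.13 for dexamethasone (adjusted p = 9.71e-08 and 2.15e-08, edgeR).

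Of the 5 Groucho family genes on the list (Tle1 to Tle5), Tle1 and Tle2 were called lower and Tle3 higher with both glucocorticoids in both genotypes. Tle5 was called lower in knockout cells with both and Tle4 in knockout cells with dexamethasone, and neither was called in wild-type cells. Tle2 had log2 fold changes of -0.69 and -0.80 in knockout cells and -0.71 and -0.69 in wild-type cells for corticosterone and dexamethasone. Tle2 and Tle4 were named after their values were seen, so that all 5 listed Tle genes are given. Tle1 averaged 12.1 ± 2.92 CPM with corticosterone and 9.64 ± 0.995 with dexamethasone in knockout cells, against 29.3 ± 2.49 with vehicle (SD, n = 4 each). In wild-type cells it averaged 15.0 ± 1.55 CPM with corticosterone and 11.7 ± 1.24 with dexamethasone, against 30.8 ± 2.30 with vehicle (SD, n = 3 each). Tle1 libraries of the treated and vehicle groups did not overlap, and its log2 fold changes were -1.28 and -1.61 in knockout cells and -1.03 and -1.40 in wild-type cells for corticosterone and dexamethasone. Tle3 went the other way, by 0.53 and 0.65 in knockout cells and 0.47 and 0.67 in wild-type cells. The Mastermind coactivator gene Maml2 was called higher in knockout cells with both glucocorticoids (0.71 and 0.80). In wild-type cells Maml2 passed with dexamethasone (0.72) and not with corticosterone (0.61, adjusted p = 0.0528). Hey1, a target gene of the pathway, stood at 1.47 to 3.65 CPM across the 27 libraries. It was called higher in wild-type cells with IL4 (0.57, adjusted p = 0.0445), corticosterone (0.75, 0.0320) and dexamethasone (0.71, 0.0243), and was not called in knockout cells (0.23, 0.35 and 0.43, adjusted p = 0.438, 0.260 and 0.111).

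**Figure D4:**
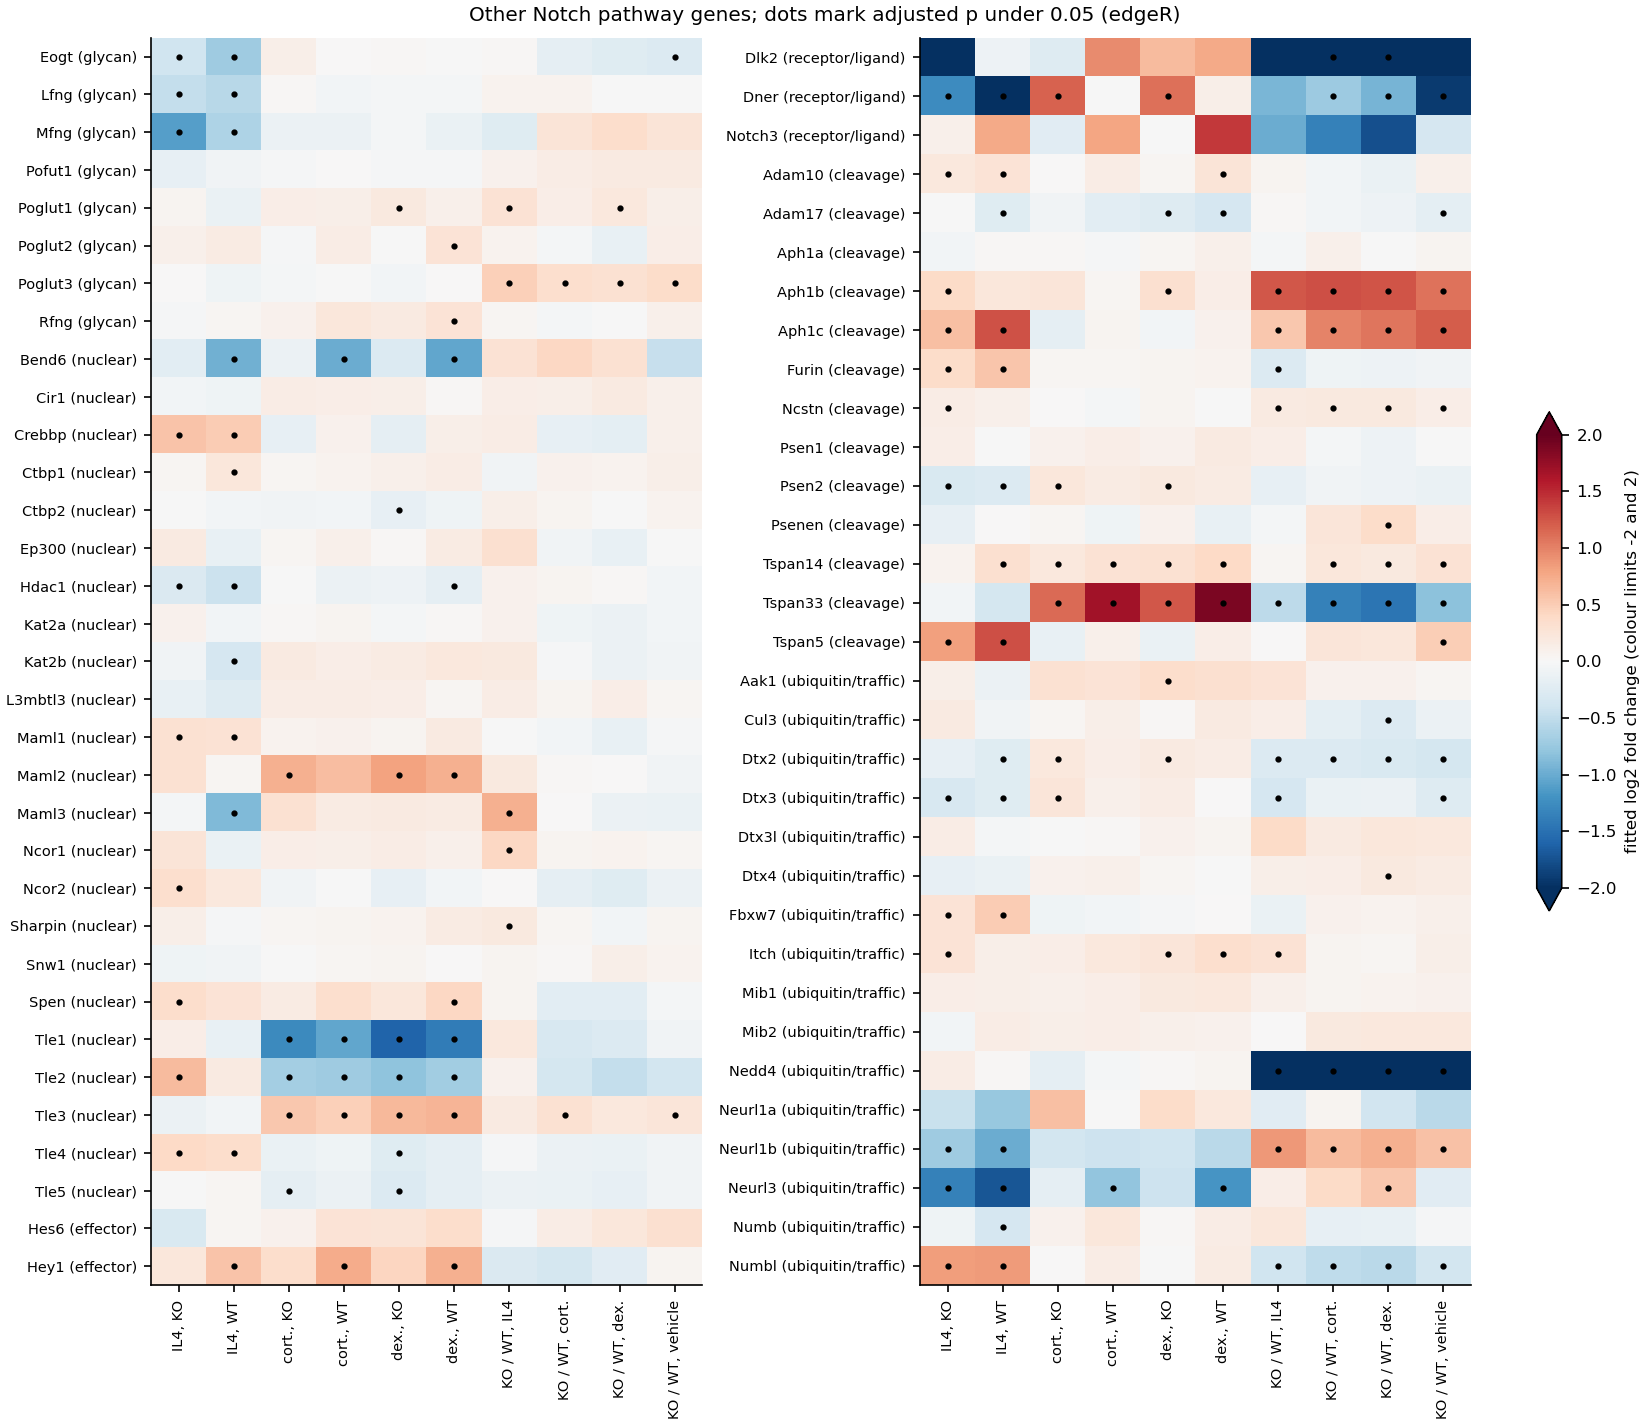
Fitted log2 fold changes of the 65 other Notch pathway genes tested (rows, grouped by role) in the treatment comparisons of each genotype and the 4 knockout over wild-type comparisons (columns), with colours held at -2 and 2; dots mark an adjusted p under 0.05. Tspan33 and Tle1 stand out under the glucocorticoids, Tspan5 and Neurl3 under IL4, and Nedd4 between genotypes.

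Between genotypes, 8 of the 65 were higher and 8 lower in knockout cells under vehicle (24.6%), 10 higher and 6 lower under IL4 (24.6%), 7 higher and 6 lower under corticosterone (20%) and 10 higher and 7 lower under dexamethasone (26.2%), beside 18.8%, 12.4%, 14.4% and 17.2% of all genes. Without the wild-type library numbered 1 of that treatment the counts were 10 for vehicle, 6 for IL4, 7 for corticosterone and 8 for dexamethasone, and the IL4 count was 9 without knockout library 4. Without all wild-type libraries numbered 1 they were 9 for vehicle and 10 for dexamethasone, and the dexamethasone count was 9 without the libraries high in Arg1. The gamma-secretase subunit genes Aph1b and Aph1c were higher in knockout cells in all 4, by 1.08 to 1.29 and by 0.54 to 1.21 on the log2 scale, but as close paralogs they may share reads and are uncertain. Dner averaged 1.99 ± 0.895 CPM in knockout vehicle libraries (SD, n = 4) against 7.44 ± 0.278 in wild-type vehicle libraries (SD, n = 3), a log2 difference of -1.92 ± 0.25 (adjusted p = 9.92e-06, edgeR). With edgeR the difference was -0.91 ± 0.33 under IL4 (adjusted p = 0.0763), -0.73 ± 0.24 under corticosterone (0.0429) and -0.93 ± 0.24 under dexamethasone (0.00932). In wild-type libraries numbered 1, 2 and 3, Dner stood at 7.33, 7.23 and 7.75 CPM with vehicle and 1.60, 1.63 and 1.38 CPM with IL4. It stood at 6.65, 8.19 and 7.28 CPM with corticosterone and 5.03, 9.34 and 9.61 CPM with dexamethasone. The part of stromal cells in the Dner difference was not tested. Nedd4 was lower in knockout cells in all 4, by log2 differences of -2.40 to -2.65, in step with the stromal transcripts as described above. No pathway gene was called for any interaction in the fit without a block. With the replicate number as a block 3, 1 and 2 were called for IL4, corticosterone and dexamethasone, and DESeq2 called 1, 0 and 0. At an unadjusted p under 0.05, edgeR without the block gave 11, 4 and 6 of the 65 genes. Over all 14589 genes tested it gave 1323, 926 and 880.

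Across the 27 libraries the genes whose log2 CPM followed each member most closely were Rnf103 (Pearson r = 0.955), B3galnt1 (0.953) and Ada (0.945) for Notch4, Ugt1a7c (0.944), Cd33 (0.940) and Gpr141 (0.931) for Notch1, and Wdfy3 (0.953), Fam168a (0.937) and Jmy (0.928) for Notch2. For the ligands they were Hmox1 (0.956), Shroom3 (0.947) and Akap12 (0.943) for Jag1, and Ccdc85c (0.911), R3hcc1l (0.911) and St3gal5 (0.909) for Jag2. For Rbpj they were Slamf9 (0.923), Nol4l (0.917) and Carmil1 (0.910), and for Hes1 Hoxc10 (0.971), Emx2 (0.963) and Gpc4 (0.963). These correlations share the treatments, genotypes and replicate numbers of the libraries and are descriptions. Over the 8 group means, the top 3 genes shared 1 with this list for Notch1 (Cd33), Rbpj (Slamf9) and Hes1 (Emx2) and 0 for the other 4. Among the members themselves, the closest pairs were Notch4 with Jag2 (r = 0.871) and Notch4 with Jag1 (0.823), then Jag1 with Hes1 (0.761) and Notch1 with Notch2 (0.724).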

How the data were processed

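Raw counts of reads per gene were deposited by the authors for 27 libraries. Per the labels' protocols, poly(A) RNA was made into NEBNext Ultra II Directional libraries and sequenced as paired reads of 50 bp. Per the submitters' processing notes, fastp 0.23.2, STAR 2.7.0, featureCounts and edgeR 3.38.4 were used with mm10; whether counting used the strand is not stated in those notes. Here, filterByExpr (minimum count 10) kept 14589 of 29872 genes, TMM scaled the libraries, and 1 edgeR 4.0.16 quasi-likelihood fit (R 4.3.3, legacy dispersion, robust) with 8 group means over all libraries gave each comparison, adjusted by Benjamini-Hochberg over all genes tested with calls made at an adjusted p of 0.05. The fitted biological variation between libraries (common coefficient) was 0.122. CPM uses TMM-scaled library sizes. Fold changes are log2 of the numerator over the denominator named. The fit was also run on counts simulated from its own model, in which libraries shared nothing by replicate number. That run could not show what such sharing does to the calls.

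The members and the gene lists were chosen with earlier results of these data known. Named pathway genes are from the up to 6 with the smallest adjusted p per comparison, and the genes most like a member are the top 3 by Pearson correlation of log2 CPM (prior count 2), leaving out predicted genes. A gene named in 1 comparison is given in the others for reference. Positions are from GENCODE vM21 (29815 of 29872 identifiers matched) and start windows from RefSeq.

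Replicate numbers were taken to pair libraries where every same-number correlation of deviations from group means was over 0.1. These were 0.279 to 0.713, 0.279 to 0.674 and 0.244 to 0.640 for IL4, corticosterone and dexamethasone in wild type, and 0.115 to 0.280 and 0.112 to 0.274 for IL4 and corticosterone in knockout. The main fit had no block, because the labels do not say what a replicate number shares. Its calls in these comparisons therefore leave the pairing unused. Alternatives were RLE scaling, no filter, DESeq2 1.42.0, only the groups compared, a replicate block, leaving out each library, and, added after seeing the data, leaving out 4 libraries high in Arg1 or the 4 wild-type libraries numbered 1. The share of all genes called was not taken in these alternatives.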

Additional observations from a re-analysis of the deposited data

Results flagged for a closer look

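Hes1 in knockout dexamethasone library 1 stood at 0.139 CPM, from 3 counts, while the other 3 libraries of its group stood at 0.211 to 0.218 CPM. Its gap to the nearest library exceeded the critical value of Dixon's test at the 95% level. It was the 1 library past that value in 21 groups tested, where chance gives about 1 in 20.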

How the results depend on the processing

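Of 33 calls of single members, 23 held in every alternative tried, 10 were lost in at least 1 and 0 changed direction. With only the groups compared, the member counts were 2 for dexamethasone in wild type and 1 for knockout against wild type under IL4, and the pathway counts were 9 for dexamethasone in wild type, 15 for IL4 in knockout, and 9 and 3 for knockout against wild type under vehicle and IL4. Without the filter, the pathway counts were 10 for dexamethasone in wild type and 7 for corticosterone in knockout. DESeq2 called 5 members for dexamethasone in knockout and 1 for its interaction, and 1 pathway gene for the IL4 interaction.

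With the replicate number as a block, 4 members were called for corticosterone in each genotype and 6 for dexamethasone in knockout. The block gave 2 members and 2 pathway genes for the dexamethasone interaction (Notch1 adjusted p = 0.0276, Notch4 0.0380), and 3 and 1 pathway genes for the IL4 and corticosterone interactions. It also gave 16 and 25 pathway genes for corticosterone and dexamethasone in wild type, and it called Rbpj between genotypes under vehicle (adjusted p = 0.0295) and Notch2, Jag1 and Jag2 for dexamethasone in knockout (0.0011, 9.8e-05 and 0.0183). Beside these and the calls given in the report, it changed no other call of a member. Same-number correlations were 0.00519 to 0.363 for dexamethasone in knockout and -0.236 to 0.0342 between genotypes, so numbers were not taken to pair those libraries.

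Without the libraries high in Arg1, 9 pathway genes were called between genotypes under dexamethasone. Without the wild-type libraries numbered 1, the pathway counts were 4 and 9 for corticosterone and dexamethasone in wild type and 9 and 10 between genotypes under vehicle and dexamethasone, and 5 members were called for dexamethasone in knockout. The cause of these shifts was not tested.

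Leaving out 1 library at a time gave 3 to 4 members for IL4, 2 to 3 for corticosterone and 2 to 4 for dexamethasone in wild type, and 2 to 4, 2 to 2 and 3 to 6 in knockout. Between genotypes it gave 1 to 4 members under vehicle, 1 to 3 under IL4 and 4 to 4 under corticosterone and dexamethasone, and 0 to 0 for each interaction. The pathway counts were 20 to 25, 5 to 7 and 8 to 16 in wild type, and 21 to 27, 7 to 12 and 11 to 18 in knockout, for IL4, corticosterone and dexamethasone. Between genotypes they were 10 to 14 under vehicle, 6 to 15 under IL4, 7 to 12 under corticosterone and 8 to 17 under dexamethasone. For the interactions they were 0 to 2 for IL4, 0 to 1 for corticosterone and 0 to 0 for dexamethasone. At 2 to 9 counts per knockout library for Hes1, and 8 to 60 for Jag2, counting error limits both.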
